A study of Mus musculus with 8 samples.

Results

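The 10 genes described here control entry into the cell cycle: Myc and Tfap4 (which encodes AP4), the D cyclins Ccnd2 and Ccnd3, their kinases Cdk4 and Cdk6, the kinase inhibitor Cdkn1b, and Rb1, E2f1 and E2f2. They were chosen by gene symbol, and all 10 were found among the 55421 gene identifiers of the count table. RNA was measured by bulk sequencing of ribosomal RNA depleted total RNA from splenic germinal centre B cells of C57BL/6 mice aged 8-10 weeks, taken at day 10 after immunization and isolated with PNA magnetic beads. The cells came in 2 fractions that are taken here to be centroblasts (CB) and centrocytes (CC), from mice that were Smarca4+/+ (called WT in the labels) or Smarca4+/- (called HET), with 2 libraries in each of the 4 groups. Smarca4 encodes the ATPase BRG1 of the SWI/SNF chromatin remodelling complexes. All groups were immunized. How the Smarca4 allele was made, whether a Cre was used, what was injected and how CB and CC were separated could not be learned from the sources used here. The labels do not say whether 2 libraries of a group came from different mice, so a p sets a difference against a spread that may be only technical.

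Germinal centre B cells divide in the dark zone as centroblasts and compete for help from T cells in the light zone as centrocytes. Myc is a transcription factor that is briefly induced in the small number of light zone cells that receive this help, and AP4, the product of a Myc target gene, prolongs the divisions that follow. D cyclins activate the kinases CDK4 and CDK6, which phosphorylate the retinoblastoma protein RB1 and free E2F factors to switch on the genes of DNA replication, while p27, the product of Cdkn1b, restrains cyclin-dependent kinases. Cyclin D3 is the D cyclin on which the dark zone divisions of germinal centre B cells depend.

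CB libraries held 18357578 to 24341805 counts and CC libraries 526353 to 837558. Levels are given as CPM, the share of a library's total with edgeR's TMM scaling. A count of 3 corresponded to 0.140 to 0.158 CPM in CB and to 3.56 to 5.36 CPM in CC, so a low member is measured much less precisely in CC, and these limits cover counting error only. Among genes with 1 to 20 counts, 75.1% to 81.1% of the counts in CB libraries and 84.1% to 92% in CC libraries were even numbers, so a count may not be an independent fragment. Smarca4 itself, a weak check of the labels, was lower in both Smarca4+/- CB libraries (734 and 702 CPM) than in the Smarca4+/+ ones (897 and 1002 CPM). In CC its Smarca4+/- libraries (244 and 311 CPM) lay just below the others (322 and 316 CPM). The log2 fold changes were -0.40 in CB and -0.20 in CC, called in 0 of 19 settings in either fraction. The genotypes also did not overlap for 32.1% of all genes in CB and 32.6% in CC. The germinal centre B cell markers, 10 genes, summed to 3974 to 4515 CPM in CB and 2963 to 3754 CPM in CC. The 7 dark zone markers summed to 4884 to 5822 CPM in CB and 1434 to 3109 CPM in CC, and the 7 light zone markers to 315 to 398 CPM in CB and 663 to 920 CPM in CC. Most of the dark zone sum was Mki67 alone, at 3681 to 4527 CPM in CB and 1027 to 2574 CPM in CC. CC also held more RNA of other cells. The 11 macrophage and monocyte markers summed to 46.2 to 222 CPM in CB and 1467 to 3292 CPM in CC, the 11 T cell markers to 112 to 136 and 200.4 to 557 CPM, and the 9 erythroid markers to 5.43 to 12.8 and 128 to 778 CPM. Most of the T cell sum in CB was Lck alone, at 108 to 132 CPM there and 100 to 204 CPM in CC. Each other T cell marker was at most at 1.68 CPM in CB and at 0 to 98.1 CPM in CC. The 7 markers of naive and memory B cells summed to 303 to 423 CPM in CB and 816 to 1453 CPM in CC, and the 5 plasma cell markers to 416 to 515 and 284 to 402 CPM. In bulk RNA, a difference in the number of cells of a type and a difference in RNA per cell cannot be told apart.

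CC was first compared with CB within each genotype. Myc and Ccnd2 were higher in CC in both genotypes, Ccnd3 was lower in CC in Smarca4+/- only by the test's threshold, and the other 7 members passed the threshold in neither genotype. In edgeR's quasi-likelihood test with Benjamini-Hochberg adjustment at 0.05, 2 of 10 members were higher and 0 lower in Smarca4+/+ CC, where 3.72% of the 12997 genes tested were higher and 3.76% lower (7.49% in all). In Smarca4+/- CC, 2 of 10 were higher and 1 lower, against 2.17% higher and 1.5% lower among all genes (3.67% in all). The 2 libraries of CC did not overlap the 2 of CB for 8 of 10 members in Smarca4+/+, against 56.7% of all genes, and for 7 of 10 in Smarca4+/-, against 53.4%. At an unadjusted p under 0.05 there were 5 of 10 members in Smarca4+/+ (23.3% of all genes) and 4 of 10 in Smarca4+/- (18.2%). DESeq2 called 4 of 10 in each genotype, with 17.1% and 11.1% of all genes, and limma-voom 2 of 10 in each, with 5.39% and 3.01%. The median log2 fold change of the members was -0.35 in Smarca4+/+ and -0.18 in Smarca4+/-, beside -0.19 and -0.08 over all genes tested. The median of all genes moved to -0.07 with RLE scaling and to 0.00 with total count scaling in Smarca4+/+, and to 0.03 and 0.04 in Smarca4+/-.

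**Figure D1:**
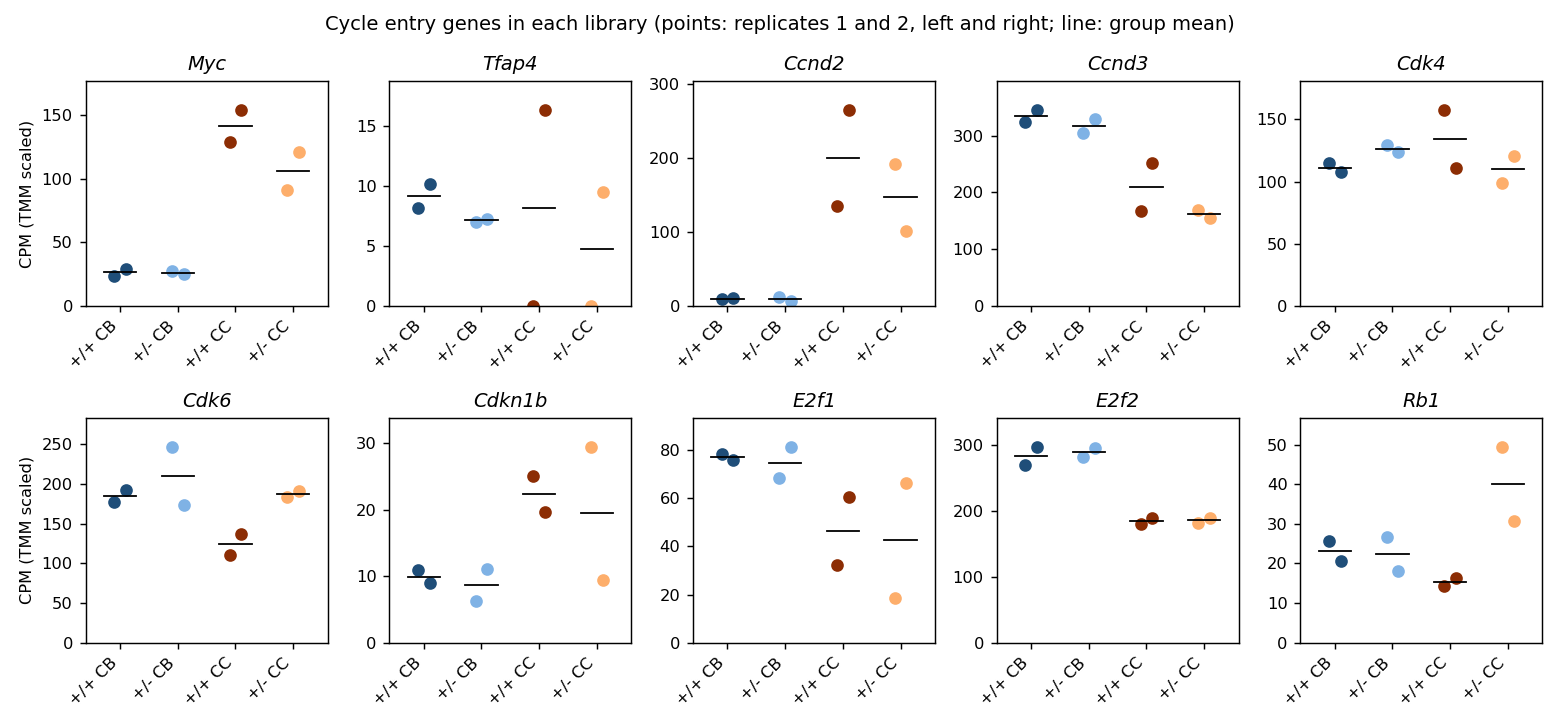
Level of each of the 10 cycle entry genes (CPM, TMM scaled, linear axis from 0) in the 8 libraries by group; points are replicates 1 and 2 and the line is the group mean. Myc and Ccnd2 are higher in all 4 CC libraries than in any CB library, and E2f2 and Ccnd3 are lower in all 4.

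Myc (ENSMUSG00000022346.15, chromosome 15:61985391-61990374 of mm10, plus strand) was at 23.8 and 28.9 CPM in Smarca4+/+ CB and at 27.6 and 24.7 CPM in Smarca4+/- CB. In CC it was at 129 and 154 CPM in Smarca4+/+ and at 90.8 and 121 CPM in Smarca4+/-, from 68 to 102 counts per library. All 4 CC libraries lay above all 4 CB libraries, and the genotypes overlapped in CB but not in CC. The log2 fold change of CC over CB was 2.42 in Smarca4+/+ (SE 0.29, edgeR adjusted p = 0.00125), a 5.36-fold difference. In Smarca4+/- it was 2.02 (SE 0.28, edgeR adjusted p = 0.00457), a 4.05-fold difference. The Smarca4+/- call ended without the first Smarca4+/- CB library (2.10, adjusted p = 0.106) and without the second (1.92, adjusted p = 0.119).

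Tfap4 (ENSMUSG00000005718.8, chromosome 16:4544661-4559854, minus strand), which is a direct target of Myc, was at 8.18 and 10.2 CPM in Smarca4+/+ CB and at 7.01 and 7.30 CPM in Smarca4+/- CB. It had 0 and 10 counts in the Smarca4+/+ CC libraries (0 and 16.3 CPM) and 0 and 8 in the Smarca4+/- CC libraries (0 and 9.48 CPM). One library of each CC group was thus at 0, where 3 counts would have been 5.36 and 4.01 CPM, and the other lay near or above the CB level. No difference in Tfap4 was detectable at this depth (log2 fold change -0.14, SE 1.16, edgeR adjusted p = 0.956 in Smarca4+/+, and -0.55, SE 1.20, adjusted p = 0.853 in Smarca4+/-).

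Ccnd2 (ENSMUSG00000000184.12, chromosome 6:127125162-127152193, minus strand) encodes cyclin D2, which is induced when resting B cells are activated. Its level was 9.45 and 10.4 CPM in Smarca4+/+ CB, at 12.5 and 6.34 in Smarca4+/- CB, 136 and 265 in Smarca4+/+ CC, and 192 and 102 in Smarca4+/- CC. Every CC library exceeded every CB library, and the genotypes overlapped in both fractions. CC exceeded CB by a log2 fold change of 4.34 in Smarca4+/+ (SE 0.46, edgeR adjusted p = 0.00102), a 20.2-fold difference, and of 3.96 in Smarca4+/- (SE 0.46, adjusted p = 0.00262), a 15.5-fold difference. As for Myc, the Smarca4+/- call ended without either Smarca4+/- CB library (4.53, adjusted p = 0.0729 without the first, and 3.53, adjusted p = 0.0789 without the second). The gene overlaps Gm43126 and 9330179D12Rik on the other strand, and reads of these cannot be told apart from its own without the strand setting.

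Ccnd3 (ENSMUSG00000034165.16, chromosome 17:47505051-47599691, plus strand), which encodes cyclin D3, was at 323 and 345 CPM in Smarca4+/+ CB and at 304 and 329 CPM in Smarca4+/- CB. In CC it was at 168 and 252 CPM in Smarca4+/+ and at 168 and 155 CPM in Smarca4+/-. The gene overlaps Bysl on the other strand, whose reads cannot be told apart from its own without the strand setting. For Ccnd3, all CC libraries lay below all CB libraries. The log2 fold change was -0.97 in Smarca4+/- (SE 0.22, edgeR adjusted p = 0.0339), a fall to 0.511 of the mean CPM in CB, and -0.67 in Smarca4+/+ (SE 0.22, adjusted p = 0.0908), short of the threshold. The Smarca4+/- call was made in 7 of 19 settings, with log2 fold changes of -1.03 to -0.81. It ended with RLE scaling (adjusted p = 0.0576), with total count scaling (0.0791), and on leaving out any one Smarca4+/+ CB library (0.0817 and 0.0811), Smarca4+/- CB library (0.251 and 0.265) or Smarca4+/- CC library (0.132 and 0.0706). In Smarca4+/+, Ccnd3 was called lower in 3 of 19 settings, among them DESeq2 (-0.54, adjusted p = 0.0473) and no low count filter (-0.71, adjusted p = 0.0398). Leaving out the second Smarca4+/+ CC library gave a log2 fold change of -0.99.

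Per kilobase of exon, a scale that sets genes side by side, the mean of Ccnd2 lay far below that of Ccnd3 in CB and near it in CC. The length is that of the deposited table (9409 bases for Ccnd2 and 8775 for Ccnd3). It need not be the length of the transcripts present, so levels of different genes compare only roughly. Ccnd3 was at 38.1 CPM per kb in Smarca4+/+ CB and 36.1 in Smarca4+/- CB, and Ccnd2 at 1.06 and 1.00 (group means). In CC, Ccnd3 was at 23.9 and 18.4 CPM per kb and Ccnd2 at 21.3 and 15.6. Of the summed level of Ccnd1, Ccnd2 and Ccnd3 per kb, Ccnd2 made up 2.64% and 2.74% in the Smarca4+/+ CB libraries, 3.70% and 1.76% in Smarca4+/- CB, 35.1% and 48.9% in Smarca4+/+ CC, and 46.9% and 36.7% in Smarca4+/- CC. Its mean share was 2.71% ± 0.791 (SD, n = 4) in CB and 41.9% ± 7.03 (SD, n = 4) in CC. An exact permutation test of the 4 CB against the 4 CC libraries, with the genotypes pooled, gave a 2-sided p = 0.0286, the smallest that 70 splits allow. The adjusted p was 0.0714 over 5 such measures, all chosen after the values had been seen. Ccnd2 was already known to be higher in every CC library, so this p adds no support of its own. The share of Ccnd3 was 97.1% ± 0.763 (SD, n = 4) in CB and 50.1% ± 6.99 (SD, n = 4) in CC, with the same exact p and adjusted p. It is mostly the remainder of the Ccnd2 share and not a separate result. The summed level was 36.1 to 40.4 CPM per kb in CB and 29.5 to 57.5 in CC (exact permutation p = 0.571), and the ranges overlapped.

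Ccnd1, the D cyclin that B cells hardly express, was at 0.864 and 0.187 CPM in Smarca4+/+ CB, at 0.105 and 0.288 in Smarca4+/- CB, 35.7 and 3.27 in Smarca4+/+ CC, and 18.7 and 4.74 in Smarca4+/- CC. It was higher in CC in Smarca4+/+ (log2 fold change 5.18, SE 1.38, edgeR adjusted p = 0.0451) but not by the threshold in Smarca4+/- (5.79, SE 1.46, adjusted p = 0.0541). In Smarca4+/+ the call ended without either CB library of either genotype, without the first Smarca4+/+ CC library (2.62, adjusted p = 0.411) and without the first Smarca4+/- CC library (adjusted p = 0.0532). It also ended with the replicate number as a block (adjusted p = 0.0549). Ccnd1 made up 18.4% and 1.21% of the D cyclin sum in the Smarca4+/+ CC libraries and 9.11% and 3.41% in the Smarca4+/- CC libraries. The macrophage and monocyte, T cell and erythroid marker sums were higher in the same fraction as Ccnd1, Ccnd2 and Myc, and their part in these results was not tested. By edgeR's test, 9 of 11 macrophage and monocyte markers were higher in Smarca4+/+ CC and 10 of 11 in Smarca4+/- CC. For the T cell list these counts were 8 and 6 of 11, for 8 tested erythroid markers 7 and 5, and for the 7 markers of naive and memory B cells 7 and 5. The second Smarca4+/- CC library held the lowest sums of all 4 CC libraries in each of these 3 lists (1467, 200.4 and 128 CPM). In it Ccnd2, at 102 CPM, was the lowest of the 4 CC libraries, and Myc, at 121 CPM, the third highest. Among their markers, Fcgr1 was at 0 in both Smarca4+/- CC libraries, Alas2 in the first, and Themis in the second. In CB, Marco was at 0 in all but the second Smarca4+/+ library, and Cd3e in both Smarca4+/+ libraries.

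**Figure D2:**
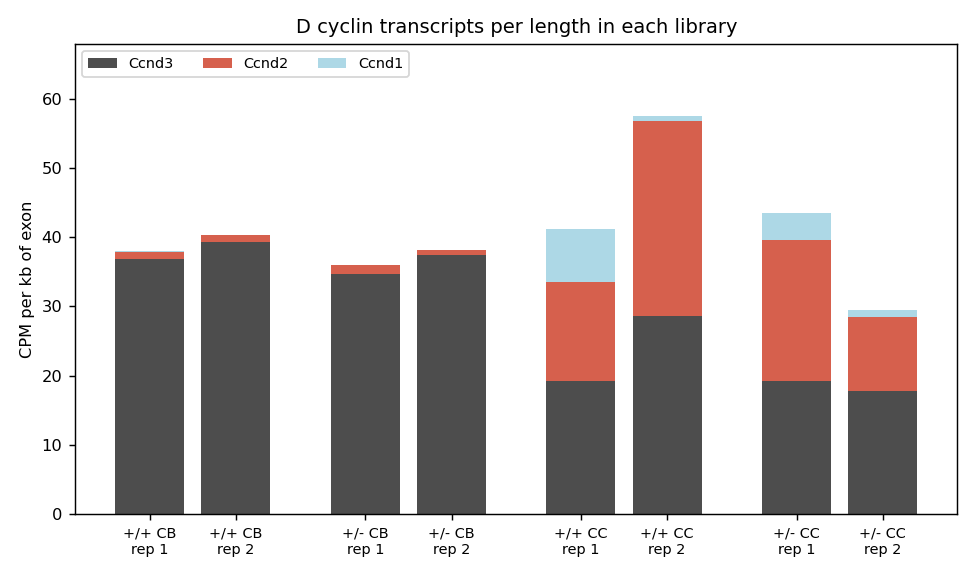
Level of Ccnd1, Ccnd2 and Ccnd3 in CPM per kb of exon, stacked, in each of the 8 libraries. Ccnd3 makes up at least 96.2% of each CB bar, and Ccnd2 makes up 35.1% to 48.9% of each CC bar.

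Cdk4 and Cdk6 encode the kinases that the D cyclins activate. Cdk4 (ENSMUSG00000006728.12, chromosome 10:127063534-127067920, plus strand) was at 115 and 107 CPM in Smarca4+/+ CB, at 129 and 123 in Smarca4+/- CB, 157 and 111 in Smarca4+/+ CC, and 98.8 and 121 in Smarca4+/- CC. Its 2 fractions overlapped over the genotypes, and CC over CB was 0.27 on the log2 scale in Smarca4+/+ (SE 0.25, edgeR adjusted p = 0.528) and -0.20 in Smarca4+/- (SE 0.24, adjusted p = 0.707). Cdk6 (ENSMUSG00000040274.11, chromosome 5:3341485-3531008, plus strand) was at 177 and 193 CPM in Smarca4+/+ CB, at 247 and 174 in Smarca4+/- CB, 111 and 137 in Smarca4+/+ CC, and 184 and 191 in Smarca4+/- CC. The Smarca4+/+ CC libraries were the lowest of the 8, and the Smarca4+/- CC libraries lay within the range of CB. The log2 fold change of Cdk6 was -0.57 in Smarca4+/+ (SE 0.24, edgeR adjusted p = 0.184) and -0.16 in Smarca4+/- (SE 0.23, adjusted p = 0.75). Per kilobase, the ratio of Cdk4 to Cdk6 was 2.63 ± 0.367 (SD, n = 4) in CB and 3.66 ± 1.71 (SD, n = 4) in CC (exact permutation p = 0.343, adjusted 0.429). Cdk4 overlaps Tspan31, and Cdk6 overlaps Gm17590 and Gm42435, on the opposite strand.

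Cdk4 is a textbook target of Myc, whose dimer with MAX binds the E-box CACGTG, and its start region is shown because it holds this word 4 times while the Cdk4 level did not pass the test beside Myc. The RefSeq promoter windows (GRCm38.p6, 250 bases before to 50 after a start site) covered 6 of the 10 members with 8 windows. Of these, 2 windows held CACGTG, which reads alike on both strands, against 7.15% of 32851 windows of all genes. The first stretch is the 250 bases before the Cdk4 start (chr10:127063285-127063534, plus strand) and the second the match in the Cdk6 window (chr5:3343663-3343688, plus strand), with CACGTG in capitals.
Cdk4: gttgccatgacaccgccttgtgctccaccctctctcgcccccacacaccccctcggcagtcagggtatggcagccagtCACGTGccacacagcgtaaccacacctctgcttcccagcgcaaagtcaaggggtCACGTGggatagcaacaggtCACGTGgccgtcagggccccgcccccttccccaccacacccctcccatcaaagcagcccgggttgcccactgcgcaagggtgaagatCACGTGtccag
Cdk6: tctgcggcccCACGTGggtgaacccc
The 4 matches of Cdk4 began 172, 118, 98 and 11 bases before the start and that of Cdk6 220 bases before it. CAGCTG, the E-box bound by AP4, was in none of the 8 windows and in 16.3% of all windows. The FOXO motif GTAAACA was in 1 of the 8, a Ccnd3 window, and in 3.65% of all windows, with both strands searched. A match is a description of letters and not a site. The windows of E2f1 and Cdk6 lay inside the deposited gene spans, as did the E2f2 window from 136180532 and the Ccnd3 window from 47593217. For E2f1 and Cdk6, the region before the deposited gene was therefore not searched.

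Cdkn1b (ENSMUSG00000003031.14, chromosome 6:134920401-134925513, plus strand), which encodes the inhibitor p27, was at 10.9 and 8.96 CPM in Smarca4+/+ CB, at 6.33 and 11.1 in Smarca4+/- CB, 25.0 and 19.6 in Smarca4+/+ CC, and 29.4 and 9.48 in Smarca4+/- CC. The second Smarca4+/- CC library, with 8 counts, lay at the CB level and the other 3 CC libraries above it. The log2 fold change was 1.17 in Smarca4+/+ (SE 0.66, edgeR adjusted p = 0.312) and 1.14 in Smarca4+/- (SE 0.65, adjusted p = 0.379), which did not exceed the spread at this depth. Per kilobase, Cdkn1b was 0.0411 ± 0.0117 (SD, n = 4) of the summed level of Cdk4 and Cdk6 in CB and 0.0961 ± 0.0438 (SD, n = 4) in CC (exact permutation p = 0.114, adjusted 0.190).

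Rb1 (ENSMUSG00000022105.6, chromosome 14:73183673-73325822, minus strand), the pocket protein gene, was at 25.7 and 20.7 CPM in Smarca4+/+ CB and at 26.6 and 18.2 CPM in Smarca4+/- CB. In CC it had 8 and 10 counts in Smarca4+/+ (14.3 and 16.3 CPM) and 37 and 26 in Smarca4+/- (49.4 and 30.8 CPM). The Smarca4+/+ CC libraries were below all CB libraries and the Smarca4+/- CC libraries above them. Neither difference between fractions passed the test (log2 fold change -0.60, SE 0.51, edgeR adjusted p = 0.494 in Smarca4+/+, and 0.84, SE 0.44, adjusted p = 0.346 in Smarca4+/-). Rb1 overlaps Rcbtb2, Lpar6, Gm17233 and Mir687, whose reads may be mixed with its own.

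E2f1 (ENSMUSG00000027490.17, chromosome 2:154559407-154569892, minus strand) and E2f2 (ENSMUSG00000018983.9, chromosome 4:136172394-136196057, plus strand) encode activating E2F factors. E2f2 was at 269 and 297 CPM in Smarca4+/+ CB, at 282 and 295 in Smarca4+/- CB, 180.5 and 189.6 in Smarca4+/+ CC, and 182 and 189.7 in Smarca4+/- CC. The fractions did not overlap, the genotypes overlapped in both, and the group SDs of 5.72 to 19.4 CPM were small beside the difference. The test still missed the threshold (log2 fold change -0.61, SE 0.19, edgeR adjusted p = 0.0745 in Smarca4+/+, and -0.64, SE 0.18, adjusted p = 0.0901 in Smarca4+/-). In Smarca4+/+ it was passed on leaving out the first or the second Smarca4+/- CC library (adjusted p = 0.043 and 0.0442), and DESeq2 called it in both genotypes (adjusted p = 0.0121 and 0.00497). E2f1 was at 78.5 and 75.8 CPM in Smarca4+/+ CB, at 68.4 and 81.3 in Smarca4+/- CB, 32.2 and 60.5 in Smarca4+/+ CC, and 18.7 and 66.4 in Smarca4+/- CC. All 4 CC libraries were below all 4 CB libraries, and within each CC group the replicates were far apart. Its log2 fold change was -0.73 in Smarca4+/+ (SE 0.47, edgeR adjusted p = 0.375) and -0.80 in Smarca4+/- (SE 0.46, adjusted p = 0.385), and without the second Smarca4+/- CC library it was -2.00 in Smarca4+/- (adjusted p = 0.0383).

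**Figure D3:**
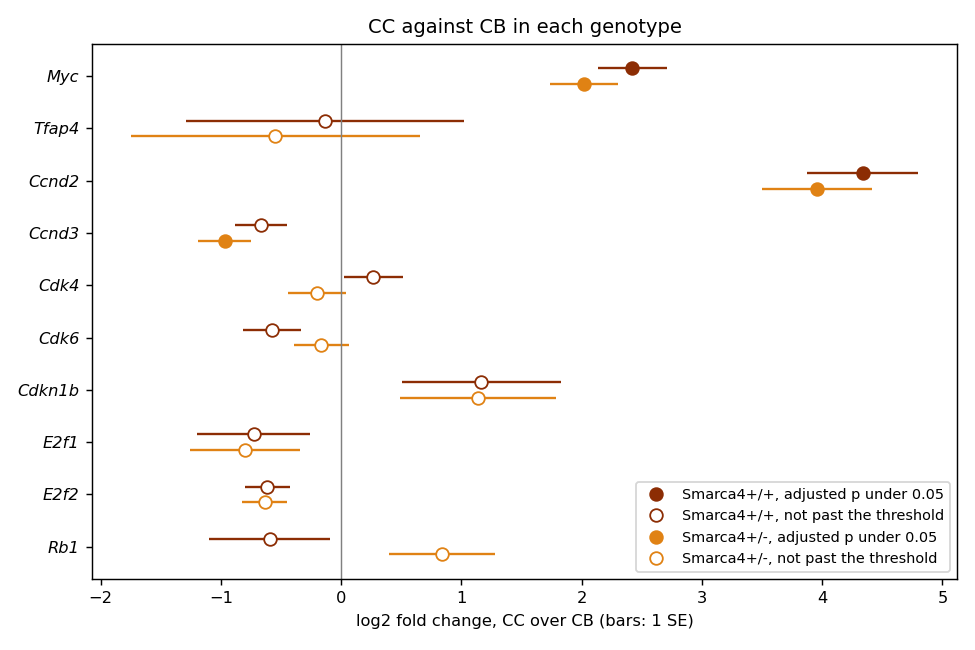
Log2 fold change of CC over CB for the 10 genes in Smarca4+/+ (WT) and Smarca4+/- (HET); points are edgeR estimates, bars are 1 SE, and filled points have an adjusted p under 0.05. Myc (2.42 and 2.02) and Ccnd2 (4.34 and 3.96) stand to the right, and Ccnd3 is filled in Smarca4+/- only (-0.97).

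On the scale of CPM per kb, the order of group mean levels in Smarca4+/+ CB was E2f2 (58.0), Ccnd3 (38.1), Cdk4 (34.2), E2f1 (24.5), Cdk6 (13.2), Myc (9.70), Rb1 (3.85), Tfap4 (3.61), Cdkn1b (2.18) and Ccnd2 (1.06). In Smarca4+/+ CC it was Myc (52.0), Cdk4 (41.3), E2f2 (37.9), Ccnd3 (23.9), Ccnd2 (21.3), E2f1 (14.7), Cdk6 (8.87), Cdkn1b (4.90), Tfap4 (3.22) and Rb1 (2.55). By these means Myc stood in sixth place in CB and first in CC, and Ccnd2 in the last place in CB and the fifth in CC, but in the first Smarca4+/+ CC library Cdk4 (48.4) lay above Myc (47.4). In Smarca4+/- CB the order differed in that Cdk4 (38.9) stood above Ccnd3 (36.1). In Smarca4+/- CC, Myc (39.0) and E2f2 (38.0) had the highest means, and in the first library E2f2 (37.2) lay above Myc (33.4). They were followed by Cdk4 (33.8), Ccnd3 (18.4), Ccnd2 (15.6), E2f1 (13.5), Cdk6 (13.4), Rb1 (6.67), Cdkn1b (4.27) and Tfap4 (1.87). In Smarca4+/+ CB, Rb1 and Tfap4 lay within the SDs of their means. In Smarca4+/+ CC, neighbours such as Myc and Cdk4, Cdk4 and E2f2, or Ccnd3 and Ccnd2, lay within the SDs of their group means, as did Myc and E2f2 in Smarca4+/- CC. The order also rests on the deposited gene lengths, with the limit given above.

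The genes whose log2 CPM most resembled that of a member over the 8 libraries were sought among 3409 genes with at least 20 counts in every library. For Myc these were Mndal (Pearson r = 0.990), Zeb2 (0.988), Marcks (0.987), Vsir (0.984) and Dock10 (0.980). For Ccnd2 they were Cd5l (0.994), Marcks (0.993), Zeb2 (0.988), Creg1 (0.985) and Jup (0.985), so Marcks and Zeb2 stood in both sets. For Ccnd3 they were Cbl (0.972), Dyrk1a (0.965), Gramd4 (0.964), Lsm14b (0.964) and Med13l (0.962). Among members, r was 0.972 between Myc and Ccnd2, -0.960 between Myc and E2f2, and 0.913 between Ccnd3 and E2f2. These coefficients describe 8 libraries that share the split into 4 deep CB and 4 shallow CC libraries, and they carry no test. CC also held more RNA of other cells, as given above, and whether the genes listed were expressed by B cells was not tested.

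The genotypes were then compared within each fraction, the question that the study's title poses of Smarca4 dose. For 10 of 10 members no difference between Smarca4+/- and Smarca4+/+ passed edgeR's test in CB or in CC, where 0% and 0.0231% of all genes did. At an unadjusted p under 0.05, 0 of 10 members in CB (0.646% of all genes) and 2 of 10 in CC (15.2% of all genes) differed, and DESeq2 and limma-voom called 0 of 10 in either fraction. Of all genes, DESeq2 called 0.00928% in CB and 6.18% in CC, and limma-voom 0.0385% and 0%. The libraries of the 2 genotypes did not overlap for 2 of 10 members in CB (Tfap4 and Cdk4), against 32.1% of all genes, and for 3 of 10 in CC (Myc, Cdk6 and Rb1), against 32.6%.

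In CB, the log2 fold changes of Smarca4+/- over Smarca4+/+ were -0.01 for Myc (SE 0.26), -0.07 for Ccnd2 (SE 0.41), -0.08 for Ccnd3 (SE 0.20) and 0.03 for E2f2 (SE 0.18). Those of the kinases were 0.18 for Cdk4 (SE 0.23) and 0.19 for Cdk6 (SE 0.22), and the edgeR adjusted p was 1 for every member. The members' median was -0.05, beside 0.00 over all genes.

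In CC, Rb1 had the largest log2 fold change of the 10 members: its mean was 15.3 ± 1.45 CPM in Smarca4+/+ and 40.1 ± 13.1 CPM in Smarca4+/- (SD, n = 2 each), from 8 to 37 counts a library. Its log2 fold change was 1.38 (SE 0.53, edgeR adjusted p = 0.259). Cdk6 was at 124 ± 18.8 CPM in Smarca4+/+ and 188 ± 4.67 CPM in Smarca4+/- (SD, n = 2 each), a log2 fold change of 0.59 (SE 0.25, edgeR adjusted p = 0.297). Myc went the other way, from 141 ± 17.7 to 106 ± 21.3 CPM (SD, n = 2 each), with a log2 fold change of -0.41 (SE 0.29, edgeR adjusted p = 0.491). Ccnd3 had -0.38 (SE 0.23, adjusted p = 0.437), Ccnd2 -0.45 (SE 0.42, adjusted p = 0.613) and Cdk4 -0.28 (SE 0.26, adjusted p = 0.605). E2f2 had 0.00 (SE 0.20, adjusted p = 1). The same libraries differed in their cell type markers. The dark zone sum was 1462 and 1434 CPM in Smarca4+/+ CC and 2190 and 3109 CPM in Smarca4+/- CC, the T cell sum 545 and 557 against 278 and 200.4, and the naive and memory B cell sum 1424 and 1453 against 1207 and 816. Most of the dark zone sum was Mki67 alone, at 1129 and 1027 against 1777 and 2574 CPM. Of the 7 dark zone markers 6 were on the positive side, and 0 passed edgeR's test. Lck gave 161 and 204 against 100 and 166 CPM of the T cell sum. The part of the markers in the members' values was not tested. None of the members' differences exceeded the spread between libraries by the test, and with 2 shallow libraries a group such a result does not show equal levels.

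Whether the step from CB to CC differed between genotypes was tested by the interaction term. It passed for 0 of 10 members in edgeR, against 0% of all genes, for 0 of 10 at an unadjusted p under 0.05 (9.19% of all genes), and for 0 of 10 in DESeq2 (1.94% of all genes) and in limma-voom (0%). The estimates were 1.43 for Rb1 (SE 0.67, edgeR adjusted p = 0.549), 0.41 for Cdk6 (SE 0.33, adjusted p = 0.683), -0.40 for Myc (SE 0.39, adjusted p = 0.738), -0.38 for Ccnd2 (SE 0.59, adjusted p = 0.868) and -0.30 for Ccnd3 (SE 0.31, adjusted p = 0.753), on the log2 scale. The call of Ccnd3 in Smarca4+/- alone is therefore not shown to be a difference between genotypes.

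**Figure D4:**
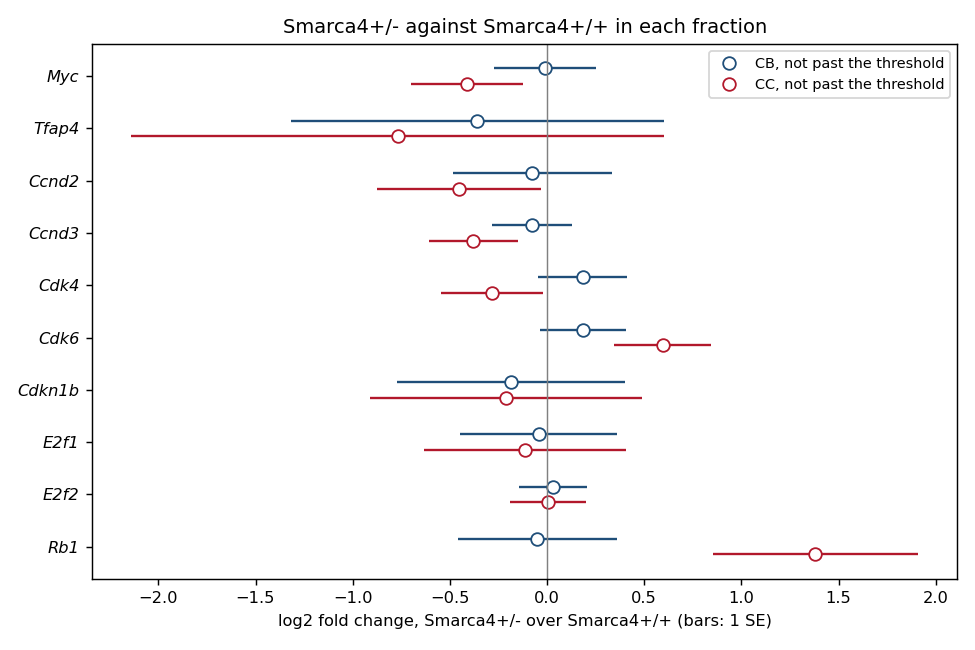
Log2 fold change of Smarca4+/- over Smarca4+/+ for the 10 genes in CB and in CC; points are edgeR estimates and bars are 1 SE. No point is filled, since no member had an adjusted p under 0.05. In CC, Rb1 (1.38) and Cdk6 (0.59) lie to the right of 0, and Myc (-0.41), Ccnd2 (-0.45) and Ccnd3 (-0.38) to the left.

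The other genes of the pathway were taken from 6 lists. Of the 22 genes that E2F factors switch on for S phase, 5 fell in Smarca4+/+ CC (3.76% of all genes) and 3 in Smarca4+/- CC (1.5%), and none rose. They included Tk1, a thymidine kinase (log2 fold change -1.69, SE 0.43, edgeR adjusted p = 0.0383), Rrm2, a ribonucleotide reductase subunit (-1.59, SE 0.27, 0.00619), Pola1, the catalytic subunit of DNA polymerase alpha (-1.27, SE 0.30, 0.0263), and Mcm5, a subunit of the replicative helicase (-0.83, adjusted p = 0.0308). In Smarca4+/- they were Cdt1, which loads the helicase (-1.83, SE 0.31, edgeR adjusted p = 0.0105), Mcm4 (-0.94, SE 0.20, 0.0303) and Mcm5 (-0.89, SE 0.20, 0.0331). The sign was negative for 21 of 22 genes in Smarca4+/+ and 18 of 22 in Smarca4+/-, while 42% and 46% of all genes were positive. The medians were -0.67 and -0.52 beside -0.19 and -0.08 over all genes. limma-voom called 0 of 22 in either genotype (5.39% and 3.01% of all genes) and DESeq2 10 and 7 (17.1% and 11.1%). At an unadjusted p under 0.05 there were 15 and 12 (23.3% and 18.2% of all genes). Over the 19 settings, Rrm2 was called in 17, Pola1 in 11 and Tk1 in 9 in Smarca4+/+, and Cdt1 in 15, Mcm4 in 10 and Mcm5 in 8 in Smarca4+/-. The Smarca4+/+ count was 0 or 1 on leaving out any one CB library and 8 without either Smarca4+/- CC library, and 3 without the first Smarca4+/+ CC library, and Pola1 lost its call without the second (adjusted p = 0.104). The Smarca4+/- count was 0 without either Smarca4+/- CB library or the first Smarca4+/- CC library, 1 without either Smarca4+/+ CB library and 5 without either Smarca4+/+ CC library.

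The E2F motif is shown for E2f2, the member whose window held it, and for 3 of the S phase genes that fell. It was searched on both strands as TTTCCCGC, TTTCGCGC, TTTGCCGC and TTTGGCGC. It was in 9 of 21 windows of the S phase list (42.9%), in 1 of 8 windows of the members (E2f2, 40 bases after the start) and in 2.26% of all windows. The E2f1 window lay inside the deposited gene, so the lack of a match in it does not describe the region before that gene. The stretches are chr4:136172303-136172323 (E2f2), chr8:75109350-75109377 (Mcm5) and chr8:122568037-122568064 (Cdt1) on the plus strand and chrX:93632276-93632303 (Pola1) on the minus strand, with the motif in capitals on whichever strand it lies. In Mcm5 another match, TTTCGCGC, which begins 153 bases before the start, overlaps the one in capitals.
E2f2: cggcatatagTTTGGCGCtaa
Mcm5: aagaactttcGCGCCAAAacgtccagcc
Cdt1: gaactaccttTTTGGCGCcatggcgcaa
Pola1: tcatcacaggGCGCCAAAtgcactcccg
E2f2 itself missed the threshold in both genotypes, as given above, and Mcm5, Cdt1 and Pola1 passed it in at least one. No window of Rrm2, which also fell, held the motif. Windows of Mcm3, Mcm6 and Mcm7, which passed in neither genotype, held it.

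Of 29 genes of growth that Myc is known to activate, 2 rose in Smarca4+/+ CC, against 3.72% of all genes. They were Nolc1, a nucleolar phosphoprotein (log2 fold change 0.95, SE 0.26, edgeR adjusted p = 0.0473), and Mybbp1a, a nucleolar protein of ribosome synthesis (0.74, SE 0.19, adjusted p = 0.0367). DESeq2 called 9 of 29 there (17.1% of all genes) and limma-voom 0 (5.39%). Over the 19 settings Nolc1 was called in 8 and Mybbp1a in 11, and with the replicate number as a block Nolc1 was not called (adjusted p = 0.0609). In Smarca4+/- CC 0 of 29 passed edgeR's test (3.67% of all genes) and 8 had an unadjusted p under 0.05 (18.2%). DESeq2 called 6 there (11.1% of all genes) and limma-voom 0 (3.01%). The sign was positive for 22 of 29 in each genotype (42% and 46% of all genes), and the medians were 0.31 and 0.34, beside -0.19 and -0.08 over all genes. Myc itself rose by 2.42 and 2.02. The Smarca4+/+ count of 2 became 0 on leaving out any one of the 4 CB libraries and 3 without either Smarca4+/- CC library. Nolc1 and Mybbp1a also lost their calls without the first Smarca4+/+ CC library (adjusted p = 0.0644 and 0.0606), where 1 other gene was called, and without the second (0.0757 and 0.0644), where 2 others were called higher and 1 lower. The Smarca4+/- count of 0 became 3 without either Smarca4+/+ CC library and 1 without the second Smarca4+/- CC library. The E-box CACGTG was in 12 of 34 windows of this list (35.3%), from 9 genes, against 7.15% of all windows. Mybbp1a is shown because it is one of the 2 that rose (41 bases after the start, chr11:72441357-72441376, plus strand). No window of Nolc1, the other that rose, held the word. No other gene of the list with the word passed edgeR's test.
Mybbp1a: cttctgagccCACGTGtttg

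**Figure D5:**
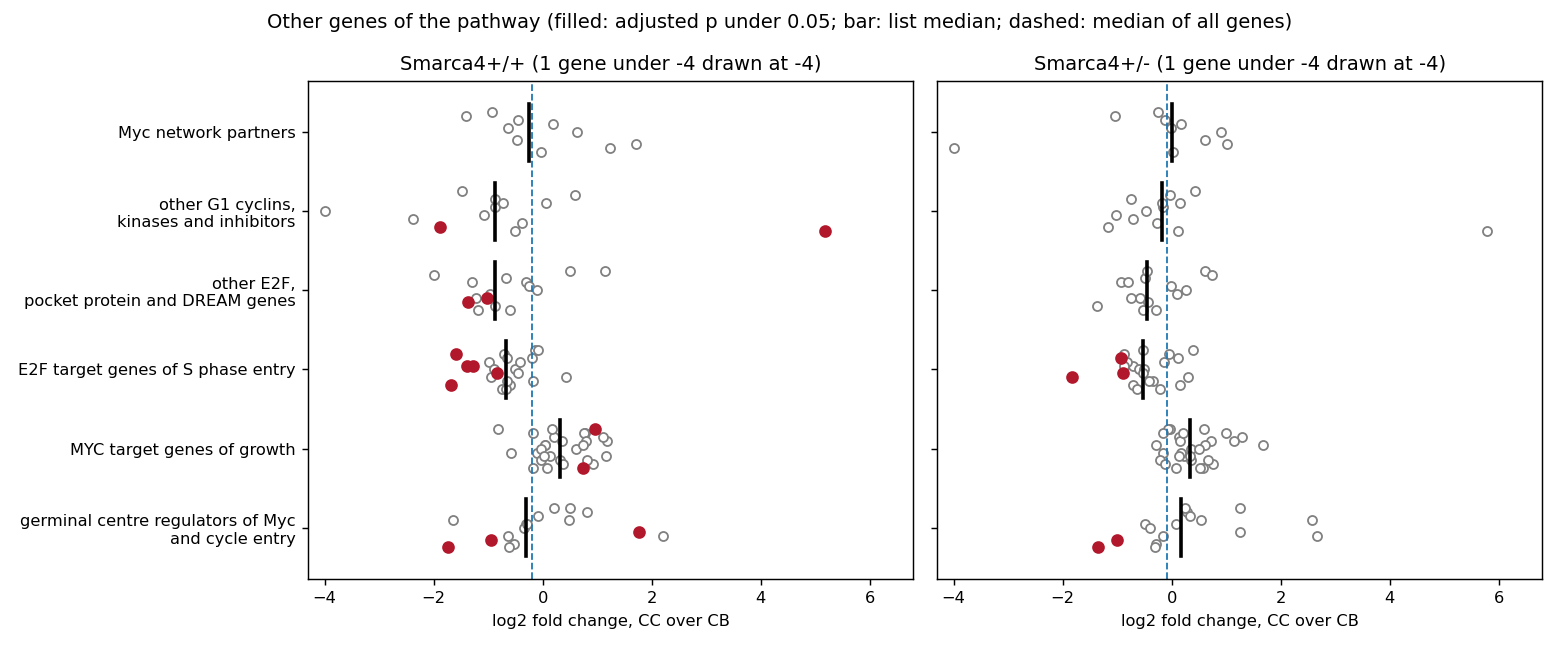
Log2 fold change of CC over CB for the genes of the 6 other pathway lists, without the members, in Smarca4+/+ (left) and Smarca4+/- (right). Each point is a gene, filled where the adjusted p is under 0.05. The bar is the list median and the dashed line the median of all genes. The S phase list has its median at -0.67 and -0.52 and the MYC growth list at 0.31 and 0.34. The points drawn at -4 are Cdkn1a (left) and Mxi1 (right), each with 0 counts in both CC libraries.

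Of the partners and rivals of Myc in the MAX network, 10 of 13 were tested and 0 passed edgeR's test in either genotype. At an unadjusted p under 0.05 there were 2 in Smarca4+/+ and 1 in Smarca4+/-, DESeq2 called 1 in each and limma-voom 0, beside the shares of all genes given above for the members (23.3% and 18.2% unadjusted, 17.1% and 11.1% by DESeq2). Their medians were -0.24 and 0.00. In Smarca4+/+, 1 was called higher without the first Smarca4+/+ CC library and 1 lower without either of them. In Smarca4+/-, 1 was called higher without either Smarca4+/+ CC library or without the second Smarca4+/- CC library. Among 13 tested genes for other G1 cyclins, kinases and inhibitors, Ccnd1 rose and Cdkn2c, which encodes the CDK4 and CDK6 inhibitor p18, fell in Smarca4+/+ (-1.88, SE 0.51, edgeR adjusted p = 0.0487). Of all genes, 3.72% rose and 3.76% fell there. In Smarca4+/- none of the 13 passed (3.67% of all genes), with 3 at an unadjusted p under 0.05 (18.2%) and 1 each by DESeq2 (11.1%) and limma-voom (3.01%). The Cdkn2c call ended on leaving out any one CB library or the first Smarca4+/+ CC library, and without either Smarca4+/+ CC library 1 of the 13 was lower in Smarca4+/-. Cdkn2c was called in 7 of 19 settings, and not with limma-voom (adjusted p = 0.123), RLE scaling (0.069), total count scaling (0.0777) or the replicate number as a block (0.058). Of 15 other E2F, pocket protein and DREAM genes, 2 fell in Smarca4+/+, against 3.76% of all genes. They were E2f8, a repressor E2F (-1.36, SE 0.36, edgeR adjusted p = 0.0457), and Tfdp1, the dimer partner of E2F proteins (-1.03, SE 0.22, 0.0181). DESeq2 called 3 (17.1% of all genes) and limma-voom 0 (5.39%) of the 15 in Smarca4+/+. E2f8 was not called with RLE scaling (adjusted p = 0.0693), with total count scaling (0.0908) or without the first Smarca4+/+ CC library (-0.84, adjusted p = 0.111), and Tfdp1 not with total count scaling (0.0716). None passed in Smarca4+/-, where 5 had an unadjusted p under 0.05 (18.2% of all genes), DESeq2 called 2 (11.1%) and limma-voom 0 (3.01%). The count of 2 was 0 without either Smarca4+/+ CB library or the first Smarca4+/- CB library, 1 without the second Smarca4+/- CB library and 3 or 4 without any one CC library, and in Smarca4+/- 2 were lower without either Smarca4+/+ CC library. The medians of the 15 genes were -0.88 and -0.45.

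Among 16 germinal centre regulators of Myc and cycle entry, Irf4, a factor of light zone and plasma cell fate, rose in Smarca4+/+ CC (log2 fold change 1.77, SE 0.33, edgeR adjusted p = 0.0109). Bach2, a repressor of plasma cell fate, fell in both genotypes (-1.74, SE 0.28, 0.00453, and -1.34, SE 0.27, 0.0224). Foxo1, a factor of the dark zone programme, fell in both as well (-0.96, SE 0.19, 0.0149, and -1.0, SE 0.19, 0.0174). In all, 1 of 16 rose and 2 fell in Smarca4+/+, and 0 rose and 2 fell in Smarca4+/-. Of all genes, 3.72% rose and 3.76% fell in Smarca4+/+, and 2.17% rose and 1.5% fell in Smarca4+/-. The medians of the list were -0.30 and 0.16. In Smarca4+/+, Irf4 and Foxo1 lost their calls without either Smarca4+/+ CB library, and in Smarca4+/- Bach2 and Foxo1 lost theirs without either Smarca4+/- CB library, and Foxo1 also without the first Smarca4+/- CC library. Without either Smarca4+/+ CC library, 4 of the 16 were higher in Smarca4+/-. Between genotypes and in the interaction, 0 genes of any of the 6 lists passed edgeR's test. In CB, 21 of 22 S phase genes were on the positive side in Smarca4+/- (49.3% of all genes), with a median of 0.18. Of the 22, 0 had an unadjusted p under 0.05 and DESeq2 and limma-voom called 0. In CC, 18 of 22 were on the positive side (55% of all genes), with a median of 0.36 beside 0.03 over all genes. The dark zone sum was higher in the same Smarca4+/- CC libraries, as given above, and its part was not tested. In CC, 6 of 22 had an unadjusted p under 0.05 (15.2% of all genes), DESeq2 called 3 and limma-voom 0. DESeq2 also called 1 gene each of the G1, E2F and regulator lists between genotypes in CC, and 6.18% of all genes.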

How the data were processed

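Per the labels' protocols, RNA of 8 libraries was prepared after ribosomal RNA depletion, and the authors deposited one table of raw read counts per gene with no normalization. The deposited table also holds a length in bases per gene (the unit is other), used here for levels per kilobase. The submitters' processing notes name FastQC, STAR, featureCounts, Subread, R 4.2.1 and genome build mm10. The tools' other versions, the strand setting and whether both ends of a fragment were counted are not stated there. Of 55421 gene identifiers 55154 had a symbol.

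Counts were fitted in R 4.3.3 with edgeR 4.0.16 (TMM scaling, filterByExpr with minimum count 10 and minimum total 15, 12997 genes kept, quasi-likelihood test, a mean per group over all 8 libraries, 4 residual degrees of freedom). The 5 contrasts were adjusted over all genes by Benjamini-Hochberg at 0.05. The procedure was also run on simulated data, whose outcome is not given here and is not used as support. Each SE was the fold change divided by the root of its F statistic. DESeq2 1.42.0, limma-voom (limma 3.58.1), other scalings and filters, a replicate block and 8 fits that each left out a library were alternatives. All 10 members passed the filter.

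The members and lists were chosen with earlier results of these data known. Besides all members, up to 4 called genes per list and genotype were named (largest changes, groups not overlapping, mean of at least 5 CPM). Mcm5 in Smarca4+/+ was added after its value was seen. Promoter windows are from RefSeq (GRCm38.p6), and members without a window are Myc, Ccnd2, Tfap4 and Rb1. Shares between fractions were tested by 2-sided exact permutation. Some genes of the lists are counted but not reported here by name.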

Additional observations from a re-analysis of the deposited data

How the results depend on the processing

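Myc and Ccnd2 were called higher in Smarca4+/+ CC in 19 of 19 settings, with log2 fold changes of 2.26 to 2.61 and 3.77 to 5.03. In Smarca4+/- they were called in 17 of 19, and both calls ended without either Smarca4+/- CB library. No called member changed direction under any alternative run. Of the 935 member values under alternatives, 55 changed sign, all uncalled in both fits. The depth of CC limits Tfap4 and Rb1 in particular: Tfap4, with 0 counts in 2 CC libraries, ranged from -9.77 to 0.83 in Smarca4+/+ fractions and from -9.28 to 9.23 in the interaction on leaving out libraries.

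Counts of all genes called depended on the tool and filter. With DESeq2 they were 2 (genotype in CB, 0 in edgeR), 712 (genotype in CC, 3 in edgeR), 2047 (CC against CB in Smarca4+/+, 973), 1376 (in Smarca4+/-, 477) and 232 (interaction, 0), and members called lower were 2 in Smarca4+/+ (0 in edgeR) and 2 in Smarca4+/- (1). With limma-voom the genotype counts were 5 in CB and 0 in CC. With no low count filter the counts were 13, 323, 1651, 1142 and 46 in the same order, with 1 member lower in Smarca4+/+. With only the groups compared in the fit they were 9, 23 and 357 for genotype in CB, genotype in CC and Smarca4+/+ fractions. CB thinned to CC depth gave 621 in Smarca4+/+ and 273 in Smarca4+/-. Without rRNA, mitochondrial and immunoglobulin genes, 0 genes were called for genotype in CC. Halving the counts, an alternative chosen after seeing that most low counts were even, gave 1, 30, 1053 and 3 genes for genotype in CB, genotype in CC, Smarca4+/- fractions and interaction. No member was called lower in Smarca4+/- (1 in the reported fit) with limma-voom, RLE scaling, total count scaling, a filter of at least 50 counts in 2 libraries, thinning, or only the groups compared: 0 in each. The cause of these differences was not tested.

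On leaving out 1 library at a time, genes called ranged from 0 to 1 (genotype in CB), 0 to 3 (genotype in CC), 170 to 1476 (Smarca4+/+ fractions, lowest without the first Smarca4+/+ CB library and highest without the first Smarca4+/- CC library), 0 to 945 (Smarca4+/- fractions, lowest without either Smarca4+/- CB library and highest without the second Smarca4+/- CC library) and 0 to 1 (interaction). Members called lower ranged from 0 to 1 in each genotype, and members called higher from 0 to 2 in Smarca4+/-. A lone library left in a group was assumed to vary like the other groups.

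With the replicate number as a block, 0, 4, 812, 443 and 1 genes were called in the same order of contrasts, and the number of members called did not change. Of the other genes named, Ccnd1 (adjusted p = 0.0549), Cdkn2c (0.058) and Nolc1 (0.0609) lost their Smarca4+/+ calls with the block. The labels do not say that equal numbers mark the same mouse, and the deviations of same-numbered libraries correlated by -0.046 to 0.0527 over the 6 pairs of groups, so the numbers were not taken as pairs.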
